A study of Mus musculus with 12 samples.

Results

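The genes described are 46 genes of the lysosome in mouse bone marrow-derived macrophages: 17 subunits and accessory proteins of its proton pump, 19 hydrolases and 10 other lysosomal proteins and regulators. They were listed by name, with earlier results of these data known. Each gene symbol was matched to its Ensembl ID among the 56980 gene IDs of the count table. All 46 were found, and all 46 were among the 15110 genes with enough counts to be tested, so no member was lost to the filter on low counts. Levels are given as CPM, in which TMM factors put the counts of all libraries on 1 scale, and are compared between genes only per kilobase of gene length.

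Lysosomes are acidic compartments in which macrophages digest material taken up by phagocytosis, endocytosis and autophagy. The V-ATPase acidifies them: its cytosolic V1 sector hydrolyses ATP and drives rotation in the membrane-embedded V0 sector, which moves protons into the lumen. The acid activates hydrolases such as the cathepsins, which cut proteins, the glycosidases, which trim sugars from glycoproteins and glycolipids, and lipases. TFEB, TFE3 and MITF are related transcription factors that are known to act on many lysosomal genes through a promoter sequence called the CLEAR element, which contains the E-box letters CACGTG.

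The macrophages were grown from bone marrow for 7 days in L929-conditioned medium. WT cells came from wildtype mice, and cKO cells carried the label RankCre-Regnaes3cKO, a conditional knockout of Regnase-3 (gene Zc3h12c) by a Cre recombinase named after RANK, the receptor encoded by Tnfrsf11a. M0 cultures received neither agent, and M1 cultures received LPS at 100 ng/ml with interferon-gamma at 10 ng/ml. The 4 groups, WT_M0, cKO_M0, WT_M1 and cKO_M1, held 3 libraries each. A group with Cre and no floxed allele, the ages of the mice and the time in LPS and interferon-gamma are not stated in the labels. The stated aim of the series was to learn the role of Regnase-3 when Rank-positive macrophages polarize. Replicates are numbered but not said to be separate mice or cultures, and each p-value therefore reflects only how far these libraries spread, which may be technical.

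Library totals lay between 41721452 and 42197986 counts. On a principal component analysis the first component held 85.1% of the variance and separated M0 from M1, and on the second 3 libraries stood apart from the others of their group: cKO_M0 replicate 1 (2.13 against -11.8 and -11.9), WT_M1 replicate 11 (44.9 against 24.0 and 19.9) and cKO_M1 replicate 9 (-19.6 against -33.3 and -37.6). Zc3h12c, the targeted gene, was at 17.2, 16.4 and 15.6 CPM in WT_M0 against 13.6, 18.5 and 14.8 in cKO_M0, and 176, 192 and 159 in WT_M1 against 98.4, 104 and 127 in cKO_M1. The genotypes overlapped in M0 (log2 fold change -0.068, adjusted p = 0.81) and did not overlap in M1 (-0.68, adjusted p = 0.00101). A count over the whole gene includes reads outside a deleted part, so it does not measure how complete the deletion was, and cKO is used below as the label. All 8 macrophage markers had counts in all 4 groups, with summed levels of 12774 to 18459 CPM per library. The sum hides single markers that went both ways between M0 and M1. In WT 4 were higher in M1 and 4 lower (log2 -5.48 to 2.67), and in cKO 4 and 3 (-6.31 to 3.35), at an adjusted p under 0.05. Summed B and plasma cell markers were 53.7 to 70.6 CPM in WT_M0 and 32.9 to 62.4 in cKO_M0, but 3.16 to 5.20 in WT_M1 and 0.455 to 0.794 in cKO_M1. Neutrophil markers summed to 13.7 to 39.3 CPM, mast cell, basophil and eosinophil markers to 0.312 to 7.77, dendritic cell markers to 0.589 to 4.60 and stromal markers to 0.0196 to 5.10. Markers of T and NK cells (0.0567 to 0.400 CPM, Cd3e at 0) and of erythroid cells (0.0879 to 0.369 CPM) were near 0.

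Promoter sequences are shown first, since the members include the 3 factors that read the CLEAR element and many of their known target genes. RefSeq promoters (build GRCm38.p6, which is not the GRCm39 build of the counts; 250 bases before to 50 after each start) were found for 37 of the 46 members, with 49 windows in all. The others were Asah1, Atp6v0d2, Atp6v1b2, Atp6v1c1, Atp6v1g1, Atp6v1h, Ctsb, Ctsh and Npc1. The E-box CACGTG, which reads the same on both strands, stood in 13 of the 49 windows (26.5%), against 7.15% of all 32851 promoters. Its longer palindrome TCACGTGA, every match of which is also an E-box match, stood in 7 of the 49 (14.3%), against 0.974% of all promoters. The 7 genes with the longer form are shown with 12 bases on each side and the motif in capitals, read 5′ to 3′ on the gene's strand.
Atp6v0d1 (chr8:105566049-105566080, minus strand): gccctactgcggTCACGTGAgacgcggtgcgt
Atp6v0e (chr17:26676386-26676417, plus strand): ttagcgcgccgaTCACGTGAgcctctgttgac
Atp6v1a (chr16:44139372-44139403, minus strand): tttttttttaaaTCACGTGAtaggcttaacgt
Ctsa (chr2:164833748-164833779, plus strand): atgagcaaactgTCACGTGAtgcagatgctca
Ctsa, further site (chr2:164833765-164833796, plus strand): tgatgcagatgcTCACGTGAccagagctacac
Ctsd (chr7:142387907-142387938, minus strand): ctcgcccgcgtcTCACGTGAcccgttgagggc
Gla (chrX:134601214-134601245, minus strand): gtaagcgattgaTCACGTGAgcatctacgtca
Gla, further site (chrX:134601181-134601212, minus strand): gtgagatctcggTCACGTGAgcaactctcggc
Mcoln1 (chr8:3500461-3500492, plus strand): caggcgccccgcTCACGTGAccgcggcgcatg
Of these 7 genes, 3 encode pump subunits, 3 hydrolases and 1 the channel Mcoln1, and Ctsa and Gla each carried the motif at 2 places. A match describes the letters and is neither a binding site nor a cause.

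The 2 pump subunits and 2 hydrolases with the largest mean change between M0 and M1 among those with a promoter were Atp6v0a1, Atp6v1d, Ctsc and Ctsz, shown as whole windows so that their letters can be set beside the motif-bearing ones. No CACGTG was present in these 4 windows, so they are in lower case throughout.
Atp6v0a1 (chr11:101010148-101010447, plus strand): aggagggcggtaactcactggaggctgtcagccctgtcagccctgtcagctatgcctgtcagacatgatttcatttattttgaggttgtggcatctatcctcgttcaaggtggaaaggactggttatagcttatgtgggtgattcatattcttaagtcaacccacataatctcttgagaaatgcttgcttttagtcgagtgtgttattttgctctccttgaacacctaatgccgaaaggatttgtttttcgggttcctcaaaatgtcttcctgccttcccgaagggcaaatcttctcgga
Atp6v1d (chr12:78861589-78861888, minus strand): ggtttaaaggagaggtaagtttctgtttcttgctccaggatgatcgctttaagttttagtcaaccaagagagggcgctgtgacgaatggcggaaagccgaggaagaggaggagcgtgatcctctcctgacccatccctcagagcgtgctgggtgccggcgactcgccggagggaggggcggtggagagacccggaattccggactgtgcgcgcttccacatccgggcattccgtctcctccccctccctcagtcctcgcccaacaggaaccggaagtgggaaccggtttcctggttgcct
Ctsc (chr7:88277835-88278134, plus strand): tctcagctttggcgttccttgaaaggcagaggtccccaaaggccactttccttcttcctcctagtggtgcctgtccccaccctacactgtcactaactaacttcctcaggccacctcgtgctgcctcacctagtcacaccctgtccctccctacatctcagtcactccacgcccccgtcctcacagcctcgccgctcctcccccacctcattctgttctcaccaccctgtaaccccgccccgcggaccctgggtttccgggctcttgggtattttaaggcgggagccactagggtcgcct
Ctsz (chr2:174438990-174439289, minus strand): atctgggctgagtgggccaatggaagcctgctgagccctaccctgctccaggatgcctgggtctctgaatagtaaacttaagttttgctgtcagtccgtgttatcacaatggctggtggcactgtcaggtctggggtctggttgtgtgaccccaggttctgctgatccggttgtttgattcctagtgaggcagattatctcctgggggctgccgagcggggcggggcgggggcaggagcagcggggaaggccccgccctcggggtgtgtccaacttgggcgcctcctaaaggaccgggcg
The absence of these letters from a window of this length says nothing about binding elsewhere.

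In unstimulated wild-type cells the members' levels per kilobase spanned a wide range, with Psap, the precursor of the saposins that help break down sphingolipids, at the top and Tfeb at the bottom. Psap stood at 3435 ± 291 CPM per kilobase (SD, n = 3) and Tfeb at 8.96 ± 0.619. Psap ranked first and Tfeb last among the 46 in each of the 4 groups. The cathepsins Ctsb, Ctss and Ctsd followed Psap in WT_M0, with 1846 ± 136, 1623 ± 145 and 1445 ± 63.0 CPM per kilobase. Neighbours in that order (Ctsb and Ctss, Ctss and Ctsd) differed by less than the sum of their SDs. Pump genes lay lower in WT_M0. The accessory protein Atp6ap1 led them at 149 ± 2.15 CPM per kilobase, followed by Atp6v0c, the proteolipid of the proton-carrying ring, at 143 ± 2.16. Atp6v1h, a regulatory V1 subunit, was among the lowest at 11.2 ± 0.241. In WT_M1 Atp6v0c led the pump genes at 301 ± 11.7 CPM per kilobase, and Atp6v1h stood at 20.2 ± 1.27. Together the 46 genes took 5.71% ± 0.259 of all counts in WT_M0 and 7.10% ± 0.0719 in WT_M1, against 4.99% ± 0.132 in cKO_M0 and 6.01% ± 0.158 in cKO_M1. The share was higher in M1 than in M0 for each genotype, and lower in cKO than in WT within each state, with no overlap between libraries. The hydrolases alone took 3.40% and 3.83% in WT_M0 and WT_M1, and 3.05% and 3.37% in cKO_M0 and cKO_M1. The pump genes took 0.592% and 0.628% in WT_M0 and WT_M1, but 0.554% and 0.530% in cKO_M0 and cKO_M1, where the libraries of both states overlapped (0.529% to 0.575% and 0.513% to 0.550%). Psap alone made up 1.14% and 1.97% of the counts in WT_M0 and WT_M1, and 0.838% and 1.51% in cKO_M0 and cKO_M1. Ctsb made up 1.35% and 1.53% in WT_M0 and WT_M1, and 1.11% and 1.30% in cKO_M0 and cKO_M1. Both genes thus held a large part of the differences in the summed share, which is no measure of the typical member.

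**Figure D1:**
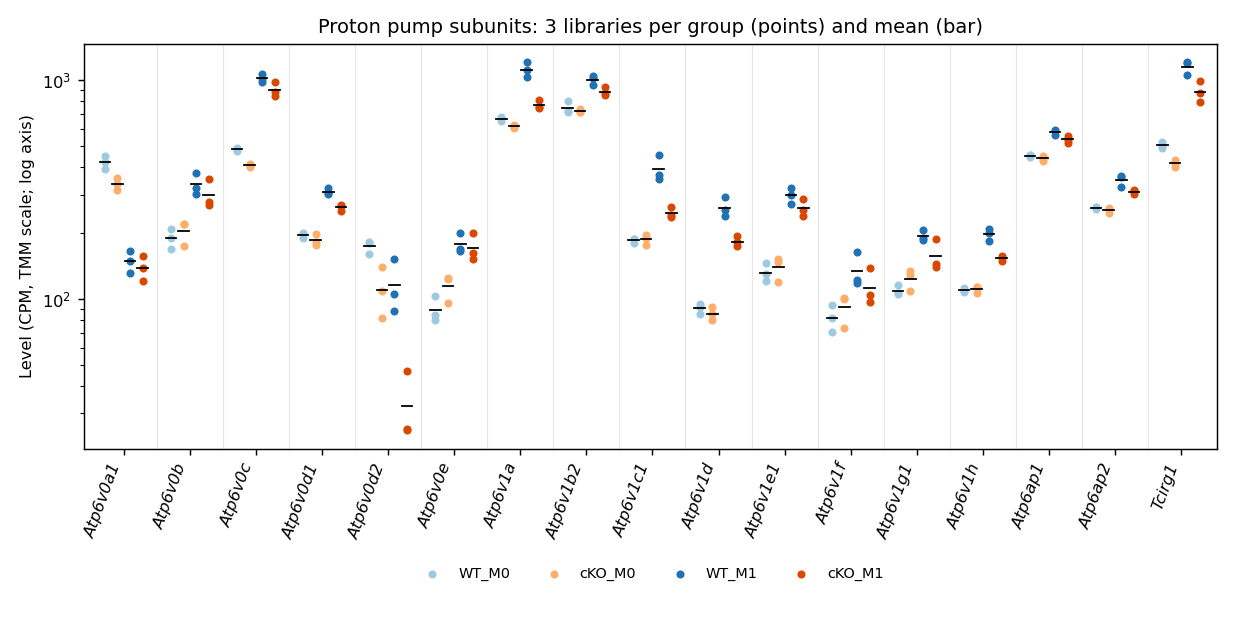
Levels of the 17 proton pump genes in CPM on the TMM scale (log axis), with 3 libraries per group as points and the mean as a bar. Atp6v0a1 is lower and Tcirg1 higher in the M1 groups, and Atp6v0d2 is lowest in cKO_M1, at 25.2 to 46.7 CPM.

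**Figure D2:**
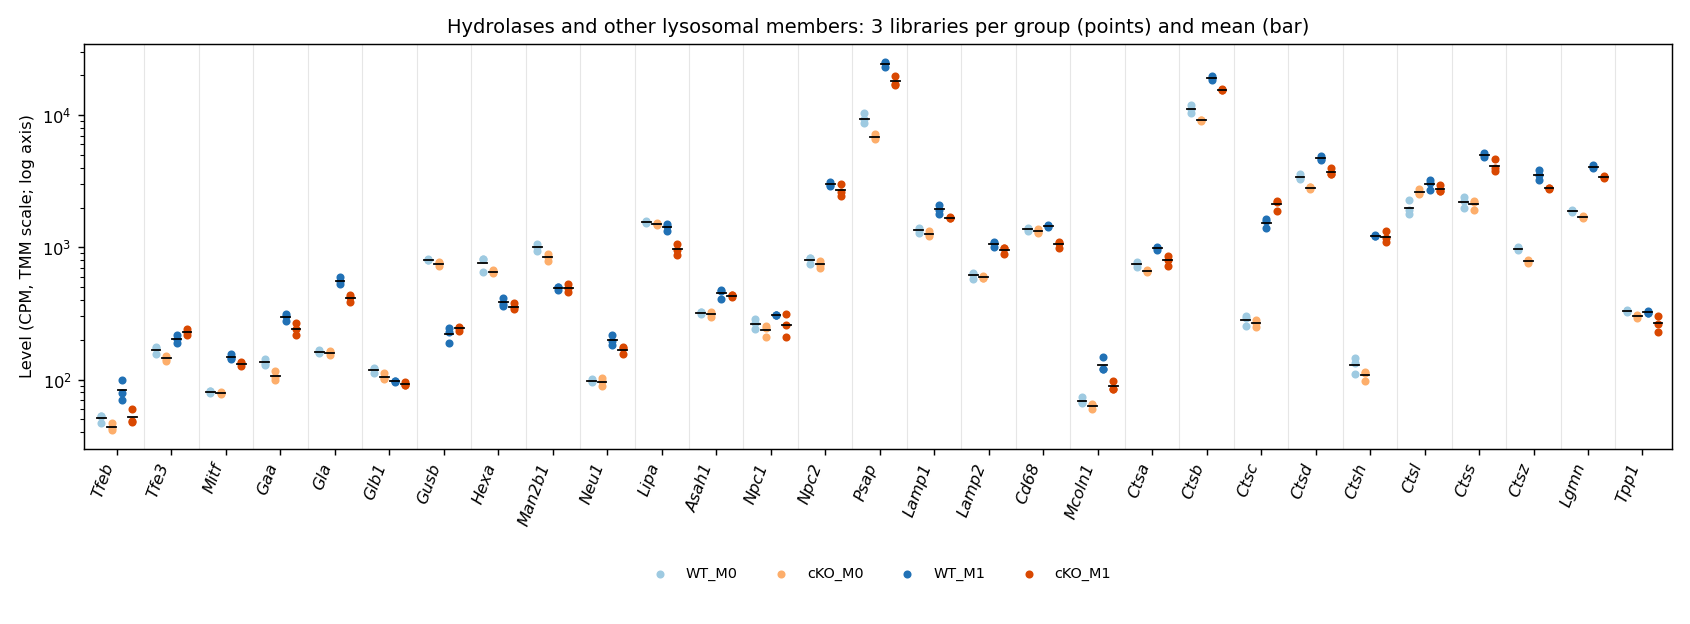
Levels of the 19 hydrolases and 10 other members in CPM on the TMM scale (log axis), with 3 libraries per group as points and the mean as a bar. Ctsh and Ctsc show the widest steps between M0 and M1, and the Lipa and Cd68 points of cKO_M1 lie below those of the other 3 groups.

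With LPS and interferon-gamma most of the lysosomal genes rose on the TMM scale, while with library totals alone fewer than 1 in 2 did. In WT, 36 of the 46 members passed in the upward direction, where 34.2% of all genes tested did, and 6 in the downward direction, where 37.1% did. The threshold was an adjusted p below 0.05 in edgeR's quasi-likelihood test with Benjamini-Hochberg adjustment over all 15110 genes. In cKO, 33 members rose against 34.2% of all genes, and 8 fell against 36%. The members' median log2 fold change was 0.76 in WT and 0.47 in cKO, against -0.067 and -0.043 over all genes. In these bulk libraries a change in the share of cells of a type and a change of RNA per cell cannot be told apart.

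The size of these rises depended on the scaling. TMM factors were 1.20 to 1.23 in M0 and 0.793 to 0.843 in M1. With library totals alone the median of all genes moved to -0.65 in WT and -0.58 in cKO, and the share of called genes that were higher went from 48% to 23.5% in WT and from 48.7% to 24.2% in cKO. On that scale 22 members rose and 13 fell in WT, and 16 rose and 17 fell in cKO. Beside them, 2769 of all 15110 genes tested rose and 9000 fell in WT, and 2778 and 8691 in cKO. On the TMM scale 39 of 46 members in WT and 37 of 46 in cKO lay above the median of all genes. A scaling moves nearly every gene by the same amount, so this count does not test the scaling. Calls that ended, but did not change sign, with library totals alone were Atp6v0b, Atp6v0d1, Atp6v1f, Atp6v1g1, Ctsl and Tfeb in WT and Atp6v0b, Atp6v0e, Lamp2 and Tfe3 in cKO. The summed B and plasma cell markers, given above, were lower in M1 than in M0 in both genotypes, and their part in these changes was not tested.

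Most of the proton pump rose. Of its 17 genes, 15 rose and 2 fell in WT, and 14 rose, 2 fell and 1 did not pass in cKO, against 8 and 3 in WT and 4 and 6 in cKO with library totals alone. Among all genes 34.2% rose and 37.1% fell in WT, and 34.2% and 36% in cKO. Library totals alone gave 2769 rising and 9000 falling of all 15110 genes in WT, and 2778 and 8691 in cKO. The medians were 0.82 and 0.40 on the log2 scale. All 8 V1 subunits rose in WT, from 0.42 for Atp6v1b2, a nucleotide-binding subunit, to 1.53 for Atp6v1d, part of the central rotor. With library totals alone Atp6v1b2 turned to -0.16. Atp6v1d had 94.8, 85.5 and 92.2 CPM in WT_M0 and 254, 291 and 239.9 in WT_M1, and 91.9, 80.4 and 85.1 in cKO_M0 and 193, 181 and 175 in cKO_M1. Every M1 library was above every M0 library, and the cKO_M1 libraries were all below the WT_M1 ones. Its fold change was 2.88 in WT and 2.13 in cKO (adjusted p = 3.02e-10 and 1.63e-08).

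Other V1 subunits rose by less. In WT the log2 fold changes were 1.17 for the stator subunit Atp6v1e1, 1.08 for Atp6v1c1, 0.85 for Atp6v1h, 0.83 for Atp6v1g1, 0.75 for the catalytic subunit Atp6v1a and 0.71 for Atp6v1f. In cKO the values for the same 6 genes were 0.89, 0.40, 0.47, 0.35, 0.32 and 0.30, of which Atp6v1f did not pass (adjusted p = 0.108). With library totals alone Atp6v1c1, Atp6v1h, Atp6v1g1, Atp6v1a and Atp6v1b2 were below 0 in cKO. The cKO call of Atp6v1g1 also ended without cKO_M0 replicate 2 or cKO_M1 replicate 7 and with library totals alone (adjusted p up to 0.138).

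In the V0 sector the proteolipids and Tcirg1 rose. Atp6v0c went up 2.11-fold in WT and 2.20-fold in cKO, and Tcirg1, the a3 isoform of the a subunit known from osteoclasts, 2.29-fold and 2.12-fold. Smaller changes were seen for Atp6v0b (0.82 in WT and 0.55 in cKO, log2), Atp6v0e (1.00 and 0.58) and Atp6v0d1 (0.66 and 0.50, the second -0.034 with library totals alone). The accessory proteins Atp6ap1 and Atp6ap2, the latter also called the prorenin receptor, rose by 0.36 and 0.43 in WT and by 0.29 and 0.28 in cKO. With library totals alone all 4 of these accessory values were below 0.

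Atp6v0a1, the a1 isoform that fills the same position as Tcirg1, fell. It had 393, 421 and 448 CPM in WT_M0 and 149.7, 131 and 166 in WT_M1, and 359, 334 and 314 in cKO_M0 and 120.4, 138 and 157 in cKO_M1. No M1 library reached the lowest M0 library. The log2 fold change was -1.50 (SE 0.11, adjusted p = 4.56e-09) in WT and -1.28 (SE 0.11, adjusted p = 3.04e-08) in cKO, and each of the 14 alternatives in either genotype kept the call and the direction. Per length, Tcirg1 made up 63.1% ± 0.905 (SD, n = 3) of the sum of Tcirg1 and Atp6v0a1 in WT_M0 and 91.7% ± 1.09 in WT_M1, and 63.9% ± 2.16 in cKO_M0 and 90.1% ± 0.235 in cKO_M1. The share was higher in every M1 library than in any M0 library. The genotypes overlapped in M0, and in M1 the WT libraries were slightly above the cKO ones.

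Atp6v0d2 (ENSMUSG00000028238), an isoform of the d subunit known from osteoclasts and macrophages, also fell. Its values were 181, 161 and 183 CPM in WT_M0 and 105, 153 and 88.0 in WT_M1, and 140.2, 82.3 and 109 in cKO_M0 and 25.5, 25.2 and 46.7 in cKO_M1. The cKO_M1 libraries were the lowest, with no overlap with any other group. Against M0 the level in M1 was 66.0% in WT (log2 -0.60, SE 0.23, adjusted p = 0.0319) and 29.4% in cKO (log2 -1.77, SE 0.24, adjusted p = 9.13e-06). The WT call ended without WT_M0 replicates 4 or 6 or WT_M1 replicates 10 or 12 and in DESeq2 (adjusted p up to 0.158). Per length, Atp6v0d2 made up 37.1% ± 2.07 of the sum of Atp6v0d1 and Atp6v0d2 in WT_M0 and 19.5% ± 3.99 in WT_M1, and 27.9% ± 4.12 in cKO_M0 and 7.47% ± 2.41 in cKO_M1. The cKO_M1 libraries were below all others, the WT_M0 libraries above all others, and cKO_M0 and WT_M1 met at 23.6% and 23.8%. Summed osteoclast markers were 105 to 118 CPM in WT_M0 and 97.1 to 104 in WT_M1, and 82.5 to 97.6 in cKO_M0 and 60.0 to 87.6 in cKO_M1, with Calcr at 0 in all but WT_M1. Their part in the level of Atp6v0d2 was not tested.

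**Figure D3:**
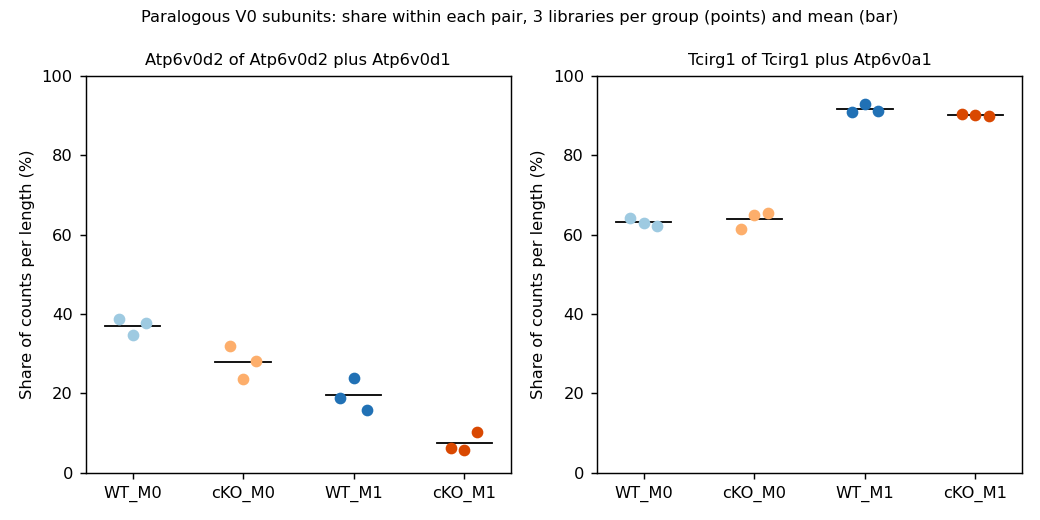
Share of the counts per length held by Atp6v0d2 within Atp6v0d2 plus Atp6v0d1, and by Tcirg1 within Tcirg1 plus Atp6v0a1, in percent, with 3 libraries per group as points and the mean as a bar. The Atp6v0d2 share is lowest in cKO_M1 (7.47%), and the Tcirg1 share steps from about 63.1% to 91.7% between WT_M0 and WT_M1.

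Both directions were seen among the hydrolases. Of the 19, 13 rose and 4 fell in WT and 12 rose and 5 fell in cKO (9 and 7, and 9 and 8, with library totals alone). These counts and those below stand beside 34.2% of all genes rising and 37.1% falling in WT, and 34.2% and 36% in cKO. With library totals alone 2769 of all 15110 genes rose and 9000 fell in WT, and 2778 and 8691 in cKO. Among the 10 proteases 9 rose in WT and 8 in cKO and 0 fell in either genotype (edgeR, also 0 at an unadjusted p under 0.05, in DESeq2 and in limma-voom, but 2 in WT and 3 in cKO with library totals alone). Among the 7 glycosidases 3 rose and 4 fell in each genotype on either scale. The difference between proteases and glycosidases was not tested. Outside the members 3 other cathepsins, named after their values were seen, fell in both genotypes, with log2 fold changes in WT of -2.32 for Ctsf, -0.65 for Ctse and -0.61 for Ctsk. Ctse was low, with a mean of 2.61 CPM in WT_M0 and 1.67 in WT_M1. Ctso, a further cathepsin, hardly moved, with means of 53.6 CPM in both WT_M0 and WT_M1, and 53.9 in cKO_M0 and 55.2 in cKO_M1. Ctsg and Ctsw had too few counts to be tested. Ctsh (ENSMUSG00000032359), an aminopeptidase of the cathepsin family, changed most. It had 146, 109 and 133 CPM in WT_M0 and 1222, 1216 and 1230.0 in WT_M1, and 113, 97.6 and 114 in cKO_M0 and 1336, 1179.9 and 1098 in cKO_M1, which is 9.44-fold higher in M1 in WT and 11.1-fold in cKO (adjusted p = 9.05e-13 and 4.25e-13). Ctsc, which activates the serine proteases of granules, rose 5.44-fold and 7.93-fold, and Ctsz, a carboxypeptidase, 3.60-fold and 3.56-fold. For these 3 genes the M0 and M1 libraries were far apart in both genotypes, and the calls held in all alternatives run.

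The other proteases moved less. Ctss, which trims the invariant chain of MHC class II, rose by 1.18 on the log2 scale in WT and 0.97 in cKO, Lgmn, the asparaginyl endopeptidase legumain, by 1.11 and 1.02, and Ctsb by 0.77 and 0.76. Ctsd, the aspartic protease, rose by 0.47 and 0.40, and Ctsa, the protective protein of neuraminidase, by 0.40 and 0.26, but with library totals alone both genes were below 0 in both genotypes. Exons of Ctsa overlap Pltp on the other strand, whose counts summed to 142% of those of Ctsa, and the labels do not say whether strand was used in counting, so the value of Ctsa is uncertain. Ctsl rose in WT (0.58, adjusted p = 7.33e-05) but did not pass in cKO (0.074, 95% interval -0.14 to 0.28, adjusted p = 0.516). Tpp1, a tripeptidyl peptidase, passed in neither genotype, with -0.027 in WT and -0.18 in cKO.

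Glycosidases took both directions. Gla, the alpha-galactosidase, rose 3.45-fold in WT and 2.60-fold in cKO, Gaa, the acid alpha-glucosidase that degrades glycogen, 2.21-fold and 2.27-fold, and the sialidase Neu1 2.01-fold and 1.75-fold. Gusb, the beta-glucuronidase, fell furthest, from 796, 809 and 809 CPM in WT_M0 to 229.7, 191 and 245 in WT_M1 and from 722, 778 and 758 in cKO_M0 to 247, 251 and 235 in cKO_M1. That left 27.6% of the M0 level in WT and 32.5% in cKO. Hexa, a subunit of beta-hexosaminidase, stood at 50.6% and 54.4%, the alpha-mannosidase Man2b1 at 49.4% and 58.7%, and the beta-galactosidase Glb1 at 82.5% and 88.2%. The cKO call of Glb1 ended without cKO_M0 replicate 2 or cKO_M1 replicates 7 or 9 and with no low-count filter and in a fit of the compared groups alone (adjusted p up to 0.111), and the gene shares exon sequence with Tmppe on the same strand (11.4% of its counts). Of the lipid hydrolases, the ceramidase Asah1 rose by 0.48 and 0.47 (log2), which turned to -0.10 and -0.065 with library totals alone, and Lipa, the lysosomal acid lipase, did not pass in WT (-0.12, adjusted p = 0.193) and fell in cKO (-0.64, adjusted p = 2.8e-06).

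Of the 10 other members, 8 rose in WT and 7 in cKO, and Cd68 fell in cKO, while with library totals alone 5 rose and 3 fell in WT and 3 and 3 in cKO. The shares of all genes on the TMM scale were 34.2% rising and 37.1% falling in WT, and 34.2% and 36% in cKO. Npc2, the soluble cholesterol carrier, rose 3.73-fold in WT and 3.62-fold in cKO. Psap went from 9270.3, 8715 and 10291 CPM in WT_M0 to 23297, 25056 and 24847 in WT_M1, and from 7197, 6805 and 6640.0 in cKO_M0 to 17103, 16966 and 19882 in cKO_M1. These are folds of 2.59 and 2.61, with no overlap between states. Npc1, the membrane partner of Npc2, passed in neither genotype (0.22 and 0.14, log2), and shares exon sequence with Rmc1 on the other strand (17.7% of its counts).

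Among the membrane proteins the glycoprotein Lamp2 rose by 0.79 in WT and 0.69 in cKO, and Lamp1 by 0.51 and 0.40, the last gene with -0.070 and -0.13 on library totals alone. The calcium channel Mcoln1 rose by 0.90 and 0.50, with -0.034 in cKO on library totals alone. Cd68, a macrophage sialomucin, did not pass in WT (0.080, adjusted p = 0.323) and fell in cKO (-0.33, adjusted p = 0.000638). Of the transcription factors, Mitf rose by 0.87 and 0.74, Tfe3 by 0.27 and 0.67 (-0.31 in WT on library totals alone), and Tfeb by 0.71 in WT, with 0.25 (95% interval -0.0063 to 0.51, adjusted p = 0.0754) in cKO.

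**Figure D4:**
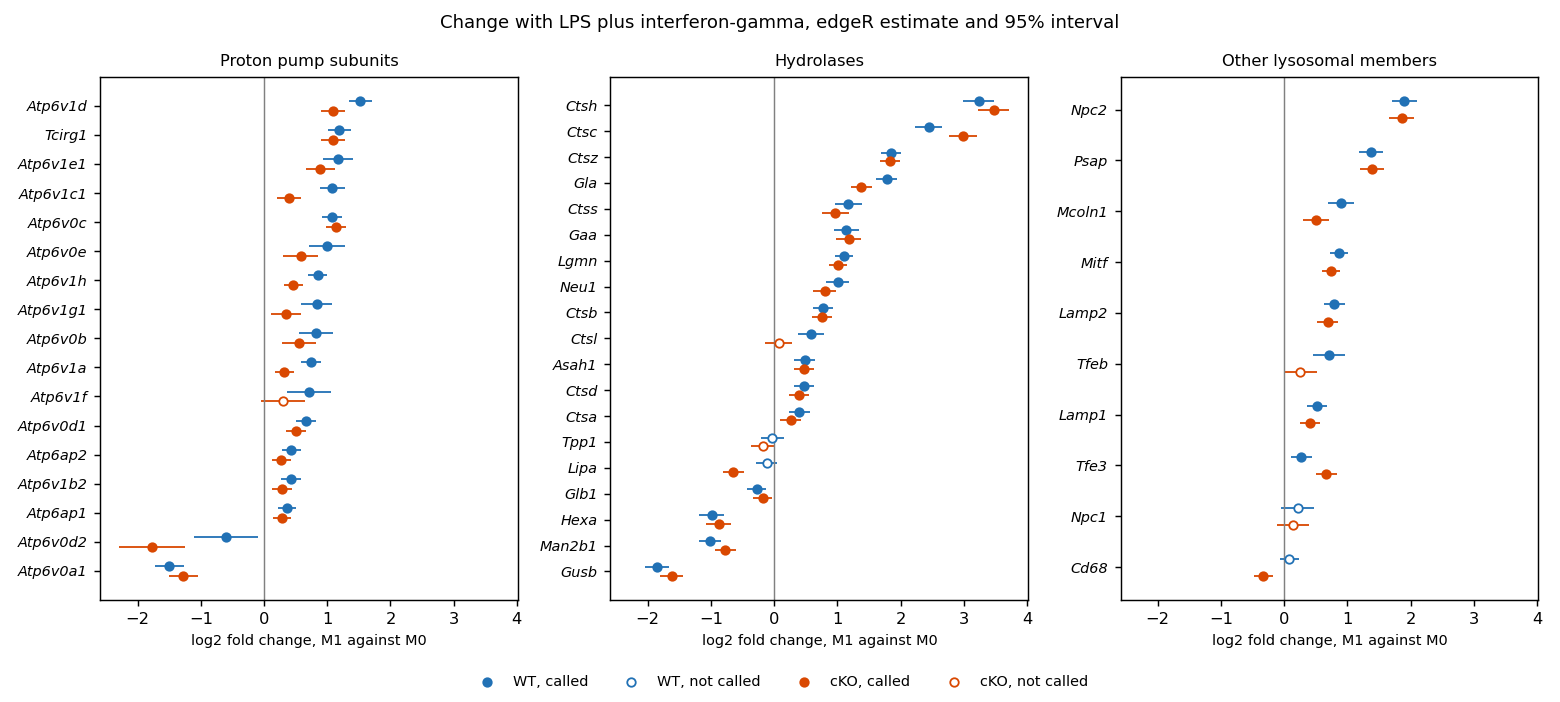
Log2 fold change of M1 against M0 for the 46 members in WT (blue) and cKO (orange), with 95% intervals from edgeR; filled points passed at an adjusted p under 0.05. Most members lie to the right of 0 on the TMM scale, and with library totals alone 8 of the called changes in WT and 13 in cKO have the opposite sign.

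Few of these genes passed between unstimulated cKO and WT cells. In M0, 0 of the 46 members were higher in cKO and 2 were lower, where 0.662% and 0.953% of all genes were. At an unadjusted p under 0.05 the counts were 2 higher and 16 lower. No share of all genes is given at that threshold, so these counts cannot be set against all genes. DESeq2 called 1 member higher and 9 lower, beside 410 and 464 of all 15110 genes. In limma-voom the members called were 1 and 5, beside 240 and 251 of all genes. The members' median was -0.096 against 0.0057 over all genes, and 38 of the 46 were below 0. None of the 17 pump genes passed in edgeR (1 higher and 4 lower at an unadjusted p under 0.05, 2 lower in DESeq2, 0 in limma-voom). Without cKO_M0 replicate 1, which stood apart on the second component, 1 member passed, Psap.

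The 2 genes that passed in M0 were Psap and Ctsz. Psap had 7197, 6805 and 6640.0 CPM in cKO_M0 against 9270.3, 8715 and 10291 in WT_M0, with no overlap, a log2 fold change of -0.45 (SE 0.087, adjusted p = 0.0264). Ctsz had 787, 768 and 802 CPM against 989.5, 947 and 1001, also with no overlap, a log2 fold change of -0.32 (SE 0.074, adjusted p = 0.0468). The call of Psap ended without WT_M0 replicates 4 or 6 or cKO_M0 replicates 2 or 3 (adjusted p up to 0.199), and that of Ctsz without WT_M0 replicates 4 or 6 or cKO_M0 replicates 1, 2 or 3 (adjusted p up to 0.272). Atp6v0d2 was at 63.1% of WT and did not pass in edgeR (-0.66, 95% interval -1.16 to -0.16, adjusted p = 0.152). Ctsl was at 1.31-fold and did not pass in edgeR (0.39, 95% interval 0.18 to 0.60, adjusted p = 0.0633). It was the only 1 of the 10 proteases above 0 in edgeR, and DESeq2 and limma-voom each called 1 protease higher.

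In M1 the cKO cells held less of many of these RNAs. Of the 46 members 20 were lower in cKO and 1 was higher, where 9.67% and 8.98% of all genes were. Without WT_M1 replicate 11, 17 members were lower and 1 higher, and over all genes the calls went from 1461 lower and 1357 higher to 987 and 671. Without cKO_M1 replicate 8 these counts were 16 and 1 members and 985 and 709 genes. Without cKO_M1 replicate 9, 22 members were lower and 1 higher. The median was -0.24, against 0.020 over all genes, and 42 of the 46 were below 0. With library totals alone the median of all genes was 0.076, the share of called genes that were higher went from 48.2% to 61.5%, and 17 members were lower and 2 higher. Lower calls included 7 of the 17 pump genes, 9 of the 19 hydrolases and 4 of the 10 others. Beside this, summed B and plasma cell markers in cKO_M1 (0.455 to 0.794 CPM) lay below those in WT_M1 (3.16 to 5.20 CPM), and macrophage markers summed to 13896 to 15852 CPM in cKO_M1 and 12774 to 14730 in WT_M1. Of the 8 single macrophage markers 2 were higher in cKO, 1 was lower and 5 did not pass. The part of all these markers in the differences was not tested.

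All 17 pump genes were below 0 in M1, with a median of -0.24, and 0 were higher in edgeR (also 0 at an unadjusted p under 0.05, in DESeq2 and in limma-voom). Atp6v0d2 differed most: the 3 cKO_M1 libraries held 25.5, 25.2 and 46.7 CPM and the 3 WT_M1 libraries 105, 153 and 88.0. That is 28.1% of the WT level, a log2 fold change of -1.83 (SE 0.25, adjusted p = 0.000177). The sum of osteoclast markers, given above, was lower in cKO_M1 too. Of the 5 osteoclast markers tested, 1 passed as lower and 4 did not pass, with 4 below 0 and 1 above.

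The V1 subunits came next. Atp6v1c1 (ENSMUSG00000022295) had 264, 237 and 241 CPM in cKO_M1 and 369.9, 453 and 353 in WT_M1. That is 63.0% of the WT level (log2 -0.67, SE 0.092, adjusted p = 0.000205). Atp6v1a had 748, 754 and 809 CPM against 1110.0, 1205 and 1035 (log2 -0.54, SE 0.074, adjusted p = 0.00021). In both genes every cKO_M1 library was below every WT_M1 library. In M0 the log2 difference was 0.019 for Atp6v1c1, with overlapping libraries, and -0.11 for Atp6v1a, and neither passed. Atp6v1d was at 69.9% of WT (-0.52, adjusted p = 0.000873) and Atp6v1h at 77.8% (-0.36, adjusted p = 0.00248). In V0, Tcirg1 was at 77.0% (-0.38, adjusted p = 0.00709) and Atp6v0d1 at 84.8% (-0.24, adjusted p = 0.0307), the latter call ending without WT_M1 replicate 11 or cKO_M1 replicates 7 or 8 and with library totals alone and with no low-count filter (adjusted p up to 0.0877).

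The 10 pump genes that did not pass in M1 spanned -0.30 for Atp6v1g1 to -0.055 for Atp6v0e. Missing the threshold does not show that these genes were alike: Atp6v1f was at -0.26 (95% interval -0.60 to 0.088, adjusted p = 0.294), Atp6v0b at -0.16 (95% interval -0.43 to 0.11, adjusted p = 0.415) and Atp6v0a1 at -0.10 (95% interval -0.33 to 0.12, adjusted p = 0.544). The remaining values were -0.18 for Atp6v0c, -0.18 for Atp6v1b2, -0.20 for Atp6v1e1, -0.11 for Atp6ap1 and -0.18 for Atp6ap2. DESeq2 called 11 pump genes lower, where edgeR and limma-voom each called 7. Over all 15110 genes DESeq2 called 1831 lower, edgeR 1461 and limma-voom 1425.

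Among the hydrolases Lipa (ENSMUSG00000024781) was lowest relative to WT in M1. Its values were 881, 953 and 1056 CPM in cKO_M1, 1457, 1496 and 1328 in WT_M1, 1508, 1475 and 1533 in cKO_M0 and 1520.2, 1580.2 and 1549 in WT_M0. The cKO_M1 libraries were the lowest and did not overlap any other group, at 67.5% of WT_M1 (log2 -0.57, SE 0.080, adjusted p = 0.000241). Gla was at 74.2% of WT (-0.43, adjusted p = 0.00132), with 437, 423 and 384 CPM against 556, 594 and 525. Smaller differences were called for Ctsd (-0.34, log2), Ctsz (-0.33), Ctsa (-0.30), Gaa (-0.30), Ctsb (-0.29), Tpp1 (-0.28) and Lgmn (-0.25), with adjusted p between 0.00497 and 0.0367. The call of Gaa ended without WT_M1 replicates 11 or 12 or cKO_M1 replicates 7 or 8 and with library totals alone (adjusted p up to 0.095), that of Tpp1 without WT_M1 replicates 10 or 11 or cKO_M1 replicates 7 or 8 and with library totals alone and in a fit of the compared groups alone (adjusted p up to 0.111) and that of Lgmn without cKO_M1 replicate 8 (adjusted p up to 0.0583).

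Ctsc (ENSMUSG00000030560) went the other way. It had 2207, 2245 and 1892 CPM in cKO_M1 against 1639.9, 1393 and 1584 in WT_M1, with no overlap, a 1.37-fold higher level (log2 0.46, SE 0.093, adjusted p = 0.0033), while the M0 groups overlapped (-0.085). The hydrolases that did not pass in M1 were Ctss (-0.27, adjusted p = 0.0721), Neu1 (-0.23, adjusted p = 0.0655), Ctsl (-0.12), Hexa (-0.10), Glb1 (-0.067), Asah1 (-0.054), Ctsh (-0.021), Man2b1 (0.00061) and Gusb (0.14). Ctsh, the hydrolase with the widest step between M0 and M1, had overlapping genotypes in M1 (log2 -0.021, 95% interval -0.24 to 0.20, adjusted p = 0.915).

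Of the other members Tfeb (ENSMUSG00000023990) was lowest relative to WT in M1. It had 46.7, 52.9 and 52.7 CPM in WT_M0 and 70.1, 98.9 and 79.7 in WT_M1, and 46.8, 41.4 and 42.9 in cKO_M0 and 47.4, 48.3 and 60.4 in cKO_M1, so that the WT_M1 libraries were the highest and the cKO_M1 libraries overlapped those of WT_M0. The cKO_M1 level was 62.8% of WT_M1 (log2 -0.67, SE 0.12, adjusted p = 0.00151). Tfe3 did not pass (0.18, 95% interval 0.0089 to 0.35, adjusted p = 0.134), nor did Mitf (-0.17, 95% interval -0.31 to -0.025, adjusted p = 0.0959). Mcoln1, which carries the longer motif, had 85.3, 84.3 and 98.0 CPM in cKO_M1 against 119.7, 149 and 120.3 in WT_M1 (log2 -0.54, SE 0.10, adjusted p = 0.00133). Cd68 had 984, 1074 and 1101 against 1418, 1473 and 1448 (log2 -0.46, SE 0.071, adjusted p = 0.000498), and Psap 17103, 16966 and 19882 against 23297, 25056 and 24847 (log2 -0.44, SE 0.087, adjusted p = 0.00276). In these 3 genes no library of one genotype overlapped the other. Lamp1 (-0.21), Lamp2 (-0.16), Npc1 (-0.24) and Npc2 (-0.15) did not pass.

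**Figure D5:**
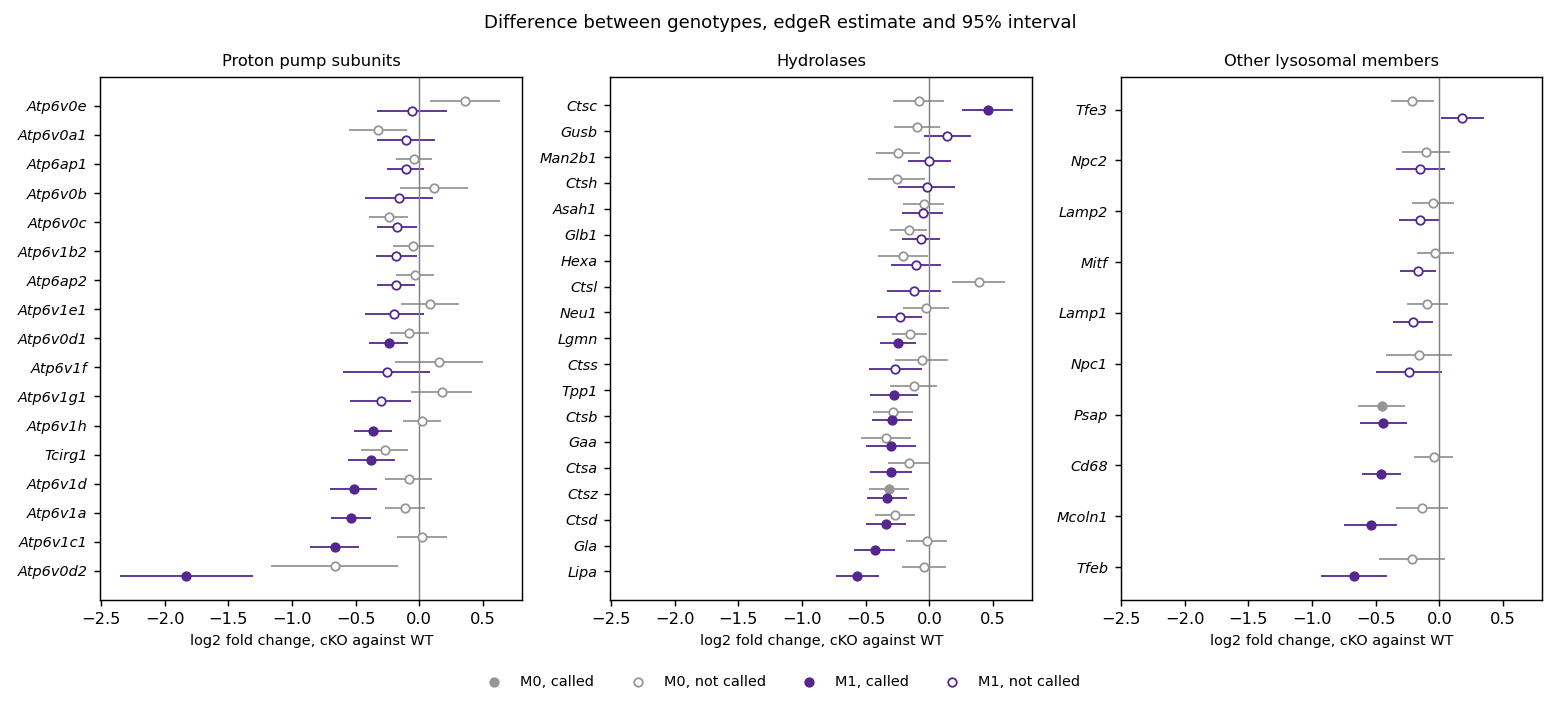
Log2 fold change of cKO against WT in M0 (grey) and M1 (purple) for the 46 members, with 95% intervals from edgeR; filled points passed at an adjusted p under 0.05. In M1 the 17 pump genes all lie left of 0 and Atp6v0d2 furthest (-1.83), and Ctsc is the called gene to the right (0.46).

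Set beside the promoters, the 7 genes with TCACGTGA rose with stimulation in both genotypes on the TMM scale, where library totals alone turned Ctsa and Ctsd below 0 in WT and Atp6v0d1, Atp6v1a, Ctsa, Ctsd and Mcoln1 below 0 in cKO. In M1, 6 of the 7 were lower in cKO: Atp6v0d1, Atp6v1a, Ctsa, Ctsd, Gla and Mcoln1. Of the 46 members, which include these 7 and the 9 without a promoter, 20 were lower, and of all genes 9.67%. The call of Atp6v0d1 ended in 5 of 14 alternatives, and the value of Ctsa is uncertain, as given above. Atp6v0e did not pass (-0.055, adjusted p = 0.814). Of the 6 genes with only the shorter CACGTG, Gaa and Lgmn were lower in cKO_M1, and Atp6v0b, Ctsl, Glb1 and Lamp1 did not pass. Glb1 fell with stimulation in both genotypes. No test was made of a difference between genes with and without either motif. Of the 4 genes shown without an E-box, Ctsz and Atp6v1d were lower in cKO_M1, Ctsc higher, and Atp6v0a1 did not pass.

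Whether the genotype difference itself changed with stimulation was tested as an interaction, the cKO effect in M1 minus that in M0. Of the 46 members 9 passed below 0 and 2 above, where 4.14% and 4.02% of all genes did. Without WT_M1 replicate 11 these counts were 5 and 0, and over all libraries left out 1 at a time they were 2 to 10 and 0 to 2. The count below 0 was lowest without WT_M0 replicate 4, cKO_M0 replicate 3 or cKO_M1 replicate 8. The calls over all genes, 625 below 0 and 608 above, fell too. They were 398 and 346 without WT_M1 replicate 11 and 395 and 394 without WT_M0 replicate 4. Without cKO_M0 replicate 3 they were 349 and 291, and without cKO_M1 replicate 8 306 and 259. The lower ones were 5 pump genes (Atp6v0d2 and the V1 subunits Atp6v1c1, Atp6v1a, Atp6v1d and Atp6v1h), 3 hydrolases (Lipa, Gla and Ctsl) and Cd68, and the higher ones were Ctsc and Tfe3. The pump median was -0.28 and that of the hydrolases -0.016, against -0.0039 over all genes, and 0 pump genes passed above 0 in edgeR, at an unadjusted p under 0.05, in DESeq2 or in limma-voom. With library totals alone the share of called genes above 0 went from 49.3% to 60.5%, and 6 members passed below 0 and 2 above.

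The difference was widest for Atp6v0d2 (-1.17, adjusted p = 0.0446) and steadiest for Atp6v1c1 (-0.69, adjusted p = 0.00597) and Lipa (-0.53, adjusted p = 0.0119), whose calls held in all 19 alternatives run. In WT, Atp6v1c1 rose 2.12-fold with stimulation and in cKO 1.32-fold, the latter -0.14 on the log2 scale with library totals alone. Lipa stood at 92.1% of its M0 level in WT and at 64.0% in cKO. The Ctsl libraries held 1917, 2296 and 1788 CPM in WT_M0 and 3224, 2700.3 and 3062 in WT_M1. They held 2538, 2557 and 2749 in cKO_M0 and 2957, 2646 and 2653 in cKO_M1. For Ctsl cKO was thus above WT in M0 without overlap and overlapped it in M1, and the genotype difference passed in neither state in edgeR. DESeq2 and limma-voom each called 1 of the 10 proteases higher in M0, where Ctsl was the only protease above 0 in edgeR. Tfe3 had 157, 176 and 172 CPM in WT_M0 and 203, 188 and 219 in WT_M1, and 139, 151 and 144 in cKO_M0 and 218, 231 and 241 in cKO_M1, with cKO below WT in M0 without overlap and overlapping it in M1. The other 9 calls each ended in 3 to 11 of the 19 alternatives (adjusted p up to 0.127), and the libraries whose removal ended at least 1 of them were WT_M0 replicates 4, 5 and 6, cKO_M0 replicates 1 and 3, WT_M1 replicates 10 and 11 and cKO_M1 replicates 7, 8 and 9.

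Beyond the members, 8 lists of genes around the lysosome were read in the same fit, 144 of whose 155 genes were tested. With stimulation 34.2% of all genes tested rose and 37.1% fell in WT, and 34.2% and 36% in cKO. The other lysosomal hydrolases (43 of 45 tested) went both ways. In WT 23 rose and 14 fell, and in cKO 23 and 16, with medians of 0.32 and 0.46. Library totals alone gave 16 and 23 in WT and 16 and 21 in cKO. With that scaling 2769 of all 15110 genes rose and 9000 fell in WT, and 2778 and 8691 in cKO. Plbd1, a phospholipase B-like protein, changed by 4.28 on the log2 scale in WT and 4.52 in cKO, the thioesterase Ppt2 by 2.31 and 2.71, and the acid phosphatase Acp2 by 2.07 and 2.12. Hyal1, a hyaluronidase, rose by 3.51 in WT, and the arylsulfatase Arsb fell by 3.26 in cKO.

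Of 26 lysosomal membrane and transport proteins 18 rose and 6 fell in WT and 16 and 5 in cKO. With library totals alone the counts were 12 and 9, and 13 and 12. These and the sorting genes below stand beside 34.2% rising and 37.1% falling over all genes in WT, and 34.2% and 36% in cKO. The metal transporter Slc11a1 rose by 2.55 in WT and 2.63 in cKO and the chloride-proton exchanger Clcn7 by 2.44 and 2.32, whereas the endolysosomal cation channel Tpcn1 stood at -2.58 and -2.51. Of 16 genes for sorting to the lysosome 8 rose and 4 fell in each genotype (3 and 12, and 3 and 9, with library totals alone). The sorting receptor Sort1 stood at -3.98 and -3.77, the mannose 6-phosphate receptor M6pr at 1.24 and 1.16, the AP-3 subunit Ap3b1 at 0.97 and 0.77 and the sulfatase-modifying factor Sumf1 at 0.84 and 0.77.

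Of the 9 tested V-ATPase assembly factors 3 rose and 5 fell in each genotype. With library totals alone 2 and 6 did in WT and 1 and 6 in cKO. The shares of all genes were 34.2% and 37.1% in WT and 34.2% and 36% in cKO on the TMM scale. Rogdi and Dmxl2, both partners in the complex that joins V1 to V0, went apart, with -2.86 and 1.74 in WT and -2.52 and 1.59 in cKO. In WT Dmxl1 was at 0.99 and Ccdc115 at -0.87, and in cKO Vma21 at -0.69 and Oxr1 at -0.68. Of the other pump isoforms 3 of 9 had enough counts: Atp6v0a2, the a2 isoform, rose by 1.09 and 1.18, Atp6v1g2 stood at -1.11 in WT and Atp6v0e2 at -1.37 in cKO. The call of Atp6v0e2 ended in a fit of the compared groups alone and without cKO_M0 replicates 2 or 3 or cKO_M1 replicates 7 or 9.

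The next 3 lists are read beside 34.2% of all genes rising and 37.1% falling in WT, and 34.2% and 36% in cKO. Of 21 genes of mTORC1 and TFEB signalling at the lysosome 12 rose and 4 fell in WT and 12 and 2 in cKO. With library totals alone the counts were 5 and 11, and 2 and 13. Flcn and its partners Fnip1 and Fnip2 act on the Rag GTPases that hold TFEB at the lysosome, and in WT they were at 1.23, 1.48 and 1.95. In cKO Fnip1 was at 0.89 and Fnip2 at 1.40, Rragb at -3.33 (-3.27 in WT) and Ywhaz at 0.50, which turned to -0.035 with library totals alone. Of 20 autophagy genes 16 rose in WT and 17 in cKO and 0 fell in edgeR, at an unadjusted p under 0.05, in DESeq2 or in limma-voom, but with library totals alone 5 rose and 8 fell in WT and 5 and 6 in cKO. The receptor Sqstm1 was at 2.46 and 2.08, Uvrag at 0.88 and 0.80, Atg5 at 1.12 and 0.89, Optn at 1.89 in WT and Atg9a at 1.00 in cKO. Of 6 tested inhibitors of proteases 5 rose and 1 fell in each genotype (4 and 2, and 4 and 1, with library totals alone). Cst7, which inhibits cathepsin C, was at 5.83 and 5.44, Serpinb9 at 5.04 and 4.54, Serpinb1a at 3.37 and 3.02, Cstb at 1.42 in WT and Serpinb6a at -0.85 in cKO.

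Between genotypes in M0, 2 of the 43 other hydrolases were lower in cKO, beside 0.953% of all genes: the tartrate-resistant acid phosphatase Acp5 (-0.75, adjusted p = 0.0461) and the galactosylceramidase Galc (-0.42, adjusted p = 0.0474). Both calls ended with library totals alone, in a fit of the compared groups alone and without WT_M0 replicates 4 or 6 or cKO_M0 replicates 2 or 3, with adjusted p up to 0.242 and 0.311. In the other 7 lists 0 genes passed in edgeR. At an unadjusted p under 0.05, for which no share of all genes is given, they held at most 3 higher and 8 lower genes each. In DESeq2 they held at most 2 and 4, beside 410 and 464 of all 15110 genes. In limma-voom they held 0 and at most 3, beside 240 and 251 of all genes.

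In M1 the lists varied in how many genes passed, beside 9.67% lower and 8.98% higher over all genes. Of 21 genes of mTORC1 and TFEB signalling 7 were lower in cKO and 1 higher, led by the GTPases Rragd (-1.73, adjusted p = 4.36e-05) and Rragc (-0.61, adjusted p = 0.000169), Fnip1 (-0.74, adjusted p = 9.79e-05) and Flcn (-0.84, adjusted p = 0.000238). The list's median was -0.010, against 0.020 over all genes. Of the 43 other hydrolases 12 were lower and 2 higher (7 and 3 with library totals alone), led by Hyal1 (-1.28, adjusted p = 4.09e-05), Dpp7 (-0.67, adjusted p = 0.000819), Pla2g15 (-0.59, adjusted p = 0.00115) and Acp5 (-0.97, adjusted p = 0.00128). Of 26 membrane and transport proteins 10 were lower and 0 higher (edgeR, 2 higher at an unadjusted p under 0.05, 0 in DESeq2 and limma-voom), among them Gpnmb (-0.89, adjusted p = 0.000202), the cystine exporter Ctns (-0.48, adjusted p = 0.00122) and Laptm4b (-0.77, adjusted p = 0.00164).

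Of 20 autophagy genes 3 were lower in cKO in M1, beside 9.67% of all genes: Optn (-1.28, adjusted p = 3.89e-05), Sqstm1 (-0.47, adjusted p = 0.000684) and Vps11 (-0.52, adjusted p = 0.000794), and 0 were higher (edgeR, 1 at an unadjusted p under 0.05, 0 in DESeq2 and limma-voom). Of 9 assembly factors 5 were lower and 2 higher, among them Dmxl1 (-0.64, adjusted p = 0.00268), Dmxl2 (-0.59, adjusted p = 0.00539), Oxr1 (-0.34, adjusted p = 0.00848) and, on the higher side, Ccdc115 (0.57, adjusted p = 0.00158). Of the 16 sorting genes 2 were higher and 2 lower, beside 8.98% and 9.67% of all genes, with Ap1g1 (0.46, adjusted p = 0.00516) and the receptor Igf2r (0.37, adjusted p = 0.043) higher and Gga2 (-0.49, adjusted p = 0.0124) and Ap3b1 (-0.28, adjusted p = 0.021) lower. Igf2r, Gga2 and Ap3b1 lost their calls without WT_M1 replicate 11 or cKO_M1 replicate 8, Ap3b1 also without cKO_M1 replicate 7, and Igf2r also without WT_M1 replicate 10 or cKO_M1 replicate 9, with DESeq2 size factors and in a fit of the compared groups alone.

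Among the inhibitors Cst7 was lower in cKO (-0.56, adjusted p = 0.0171) and Serpinb1a higher (0.83, adjusted p = 0.0338). The call of Cst7 ended without WT_M1 replicate 11, and that of Serpinb1a in limma-voom and without WT_M1 replicates 11 or 12 or cKO_M1 replicates 7 or 8. Ctsc, the protease that Cst7 is known to inhibit, was the member that went up in the same libraries. Of the other pump isoforms Atp6v1g2 was higher (0.86, adjusted p = 0.0347), and that call ended in a fit of the compared groups alone and without WT_M1 replicates 11 or 12 or any of the 3 cKO_M1 replicates.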

How the data were processed

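RNA was sequenced from 12 libraries of bone marrow-derived macrophages, 3 in each of 4 groups. The authors deposited 1 table of raw counts per gene and library, with gene lengths and symbols. Per the submitters' processing notes the tools were featureCounts 2.0.3, HISAT2 2.2.1, SAMtools 1.16.1 and Trimmomatic 0.39, and the build was GRCm39. Annotation release, strandedness and the handling of multi-mapping reads: not given in the sources used here. Of the deposited counts from 1 to 10, 60.9% were even numbers, so an alternative with counts halved was added after seeing the data.

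Of 56980 IDs, 52073 had a symbol. Genes were kept by filterByExpr (minimum count 10, total 15), which left 15110. Libraries were scaled by TMM, and 1 quasi-likelihood model of the 4 groups over all 12 libraries was fitted in edgeR 4.0.16 (R 4.3.3, two-sided tests). Contrasts were M1 against M0 in each genotype, cKO against WT in each state, and their interaction. P-values were Benjamini-Hochberg adjusted over all genes tested, with a threshold of 0.05. DESeq2 1.42.0 and limma-voom (limma 3.58.1), other scalings, filters and leaving out each library were the alternatives. The fit was tested on simulated data. CPM divide counts by TMM-scaled totals, with 41721452 to 42197986 counts per library. The common biological coefficient of variation was 0.111, and no pair of replicates held identical or nearly identical counts.

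The 46 members, the 8 gene lists and the 9 marker lists were chosen with earlier results of these data known. All members are named, and from each list up to 4 genes with the smallest p among those called in each pairwise comparison, except 1 gene that is not reported here. Whole promoters are shown for the 2 pump subunits and 2 hydrolases with the largest mean change between M0 and M1 that had one in the RefSeq table. Further genes named for their E-box or by the overlap of their exons with a member came from those searches. The cathepsins outside the members were named outside these rules, after their values were seen.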

Additional observations from a re-analysis of the deposited data

Results flagged for a closer look

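The members listed here are those whose genotype difference was itself different between M0 and M1, by edgeR's interaction test with 3 libraries a group. Each value is the log2 fold change of cKO against WT in M1 minus that in M0.

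In the pump, Atp6v1c1 differed by -0.69 (adjusted p = 0.00597), from 0.019 in M0 to -0.67 in M1. Atp6v1a differed by -0.42 (adjusted p = 0.0231), a call that ended without WT_M0 replicates 4 or 6 or cKO_M0 replicate 3 or cKO_M1 replicate 8 (adjusted p up to 0.0666). Atp6v1h differed by -0.38 (adjusted p = 0.0291), which ended without WT_M0 replicates 4 or 6 or cKO_M0 replicates 1 or 3 or WT_M1 replicates 10 or 11 or cKO_M1 replicate 8 (adjusted p up to 0.085). Atp6v1d differed by -0.43 (adjusted p = 0.0414), which ended without WT_M0 replicates 4, 5 or 6 or cKO_M0 replicates 1 or 3 or WT_M1 replicates 10 or 11 or cKO_M1 replicates 8 or 9 and with library totals alone (adjusted p up to 0.104). Atp6v0d2 differed by -1.17 (adjusted p = 0.0446), which ended without WT_M0 replicates 4, 5 or 6 or cKO_M0 replicates 1 or 3 or WT_M1 replicates 10 or 11 or cKO_M1 replicates 7 or 8 and with library totals alone and in DESeq2 (adjusted p up to 0.127).

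Of the hydrolases, Lipa differed by -0.53 (adjusted p = 0.0119), from -0.042 in M0 to -0.57 in M1. Gla differed by -0.41 (adjusted p = 0.0311), which ended without WT_M0 replicates 4, 5 or 6 or cKO_M0 replicates 1 or 3 or WT_M1 replicates 10 or 11 or cKO_M1 replicates 8 or 9 (adjusted p up to 0.0911). Ctsl differed by -0.51 (adjusted p = 0.0368), which ended without WT_M0 replicates 4 or 6 or cKO_M0 replicate 3 or WT_M1 replicate 10 or cKO_M1 replicates 8 or 9 and with library totals alone (adjusted p up to 0.107). Ctsc differed in the other direction, by 0.54 (adjusted p = 0.0211), which ended without WT_M0 replicates 4 or 6 or cKO_M0 replicate 3 or WT_M1 replicate 11 or cKO_M1 replicate 8 (adjusted p up to 0.0725).

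Cd68 differed by -0.41 (adjusted p = 0.0215), which ended without WT_M0 replicate 4 or cKO_M0 replicate 3 or cKO_M1 replicate 8 (adjusted p up to 0.0567), and Tfe3 by 0.39 (adjusted p = 0.0437), which ended without WT_M0 replicates 5 or 6 or cKO_M0 replicates 1 or 3 or WT_M1 replicates 10 or 11 or cKO_M1 replicates 8 or 9 and with DESeq2 size factors and with no low-count filter (adjusted p up to 0.117). Summed osteoclast and B and plasma cell markers were lower in cKO_M1 than in WT_M1, as given above. Of the single markers tested, 1 of 5 and 1 of 4 passed as lower. The part of these markers in the differences was not tested.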

How the results depend on the processing

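Single-member calls were refitted 1693 times in all. Of these, 1558 kept direction and side of the threshold, 114 lost the call and 21 changed sign, all 21 with library totals alone, which also lowers the median of all genes. In WT these were Atp6v1b2 (-0.16), Atp6ap1 (-0.23), Atp6ap2 (-0.16), Ctsa (-0.19), Ctsd (-0.11), Asah1 (-0.10), Lamp1 (-0.070) and Tfe3 (-0.31), and in cKO Atp6v0d1 (-0.034), Atp6v1a (-0.21), Atp6v1b2 (-0.25), Atp6v1c1 (-0.14), Atp6v1g1 (-0.19), Atp6v1h (-0.071), Atp6ap1 (-0.25), Atp6ap2 (-0.26), Ctsa (-0.27), Ctsd (-0.14), Asah1 (-0.065), Lamp1 (-0.13) and Mcoln1 (-0.034). With the same scaling 11 pump genes were called in WT and 10 in cKO between M1 and M0, and 3 in the interaction, which had 8 with no low-count filter.

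Between genotypes in M0 the pump count of 0 became 3 with no filter, 2 in DESeq2 and 1 in a fit of the compared groups alone. The hydrolase count of 1 became 4 with no filter, 2 with a minimum count of 50, 7 in DESeq2, 5 in limma-voom and 2 in the compared groups alone, and lay between 0 and 3 without 1 library at a time. In M1 DESeq2 called 11 pump genes, against 7. Leaving out 1 library gave 1 to 6 pump genes and 1 to 4 hydrolases in the interaction. Over all genes the interaction calls, 608 above 0 and 625 below, became 259 and 306 without cKO_M1 replicate 8 and 784 and 792 without WT_M1 replicate 12. Over all genes the calls in M0, 100 higher and 144 lower, became 709 and 473 with no filter, 410 and 464 in DESeq2, 240 and 251 in limma-voom, 201 and 193 in the compared groups alone, 0 and 4 without WT_M0 replicate 6, 0 and 1 without cKO_M0 replicate 3, 4 and 8 without WT_M0 replicate 4 and 15 and 17 without cKO_M0 replicate 2. The causes were not tested. No paired analysis was possible because replicate numbers 1 to 12 are not shared between groups. Library totals were alike, and the spread between 3 libraries a group limits what could be called.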
